A study of Homo sapiens with 11 samples.

Results

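DDIT4 (REDD1), DDIT4L (REDD2), the sestrins SESN1, SESN2 and SESN3, the mTOR-binding inhibitor DEPTOR, the tuberous sclerosis genes TSC1 and TSC2 and the small GTPase gene RHEB were followed in hypoxic prostate epithelial cells. These 9 regulators of mTOR complex 1 (mTORC1) were chosen by name from the pathway, with earlier results of these data known. All 9 had a row among the 60676 genes of the count table. RWPE1, an immortalized, non-tumorigenic line of human prostate epithelium established with human papillomavirus, was grown in keratinocyte serum-free medium with bovine pituitary extract and EGF. Cells were kept in normoxia (0 h, untreated, 3 libraries) or moved to 1% oxygen for 6 h (3 libraries), 12 h (3 libraries) or 24 h (2 libraries, another was not analysed here), and total RNA was sequenced to ask how the transcriptome in hypoxia compared with that in normoxia. The medium of the hypoxic cells was also supplemented with 10 mM HEPES, and the effect of oxygen cannot be told apart from that of the buffer where 0 h is the reference. All libraries came from 1 line, and no label states whether the replicates were separate cultures, so p-values measure the spread between these libraries, which may be technical.

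The 11 libraries held 27496009 to 49488345 counts each. Levels are given as CPM, counts scaled to library size, after TMM scaling, which corrects for differences in composition between libraries, and genes were called changed at an adjusted p under 0.05 in edgeR's quasi-likelihood test over 19981 genes. The TMM factors ran from 1.287 to 1.324 at 0 h and from 0.9099 to 1.067 at 6 and 12 h, but were 0.8506 and 0.5388 at 24 h. The share of counts from mitochondrial genes moved with time as well, from 10.2 to 10.3% at 0 h to 4.3 to 6.78% at 6 and 12 h and 1.74% and 0.369% in replicates 1 and 2 of 24 h, and its part in the results below was not tested. The 24 h replicate 2 stood apart from its partner, so 24 h values of the regulators and of the pathway genes named are also given without it. Basal epithelial markers were abundant, with a summed list of 7919 to 10756 CPM at 0 h and 15703 to 21058 CPM at 24 h, while the luminal markers KLK3 and KLK2 were at or near 0. The summed luminal list was 2.96 to 6.41 CPM, the endothelial list at most 0.471 CPM and the leukocyte list at most 0.64 CPM in any library. The summed fibroblast list, nearly all of it COL1A1, was 47.1 to 60.6 CPM at 0 h and 27.9 to 30.4 CPM at 24 h, with the other members of that list averaging below 0.1 CPM, and its part in the results was not tested. These are bulk libraries, in which fewer cells of a kind and less RNA per cell cannot be told apart.

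mTORC1 is a protein kinase complex that sits on the lysosome and drives protein synthesis and cell growth when nutrients, energy and oxygen are sufficient. It is switched on by GTP-bound RHEB, and the TSC complex, built on TSC1 and TSC2, switches RHEB off by stimulating its GTP hydrolysis. REDD1 restrains mTORC1 through the TSC complex and is a classical target of hypoxia-inducible factor (HIF), whereas sestrins act on the amino acid branch by binding GATOR2, and DEPTOR binds mTOR itself.

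DDIT4 and SESN2 had the largest changes of the regulators, in opposite directions, and the stretches before their transcription starts are shown with that of TSC2, which was lower at 12 and 24 h. Each runs from 250 to 21 bases before the RefSeq start (GRCh38.p14, plus strand), and 8 of the 9 genes had such a promoter entry. Capitals mark ACGTG or GCGTG, the core letters of HIF response elements, and TGATGNAA, the letters of an ATF4 and C/EBP composite element, on either strand. The DDIT4 stretch is chr10:72273674-72273903, the SESN2 stretch chr1:28259268-28259497 and the TSC2 stretch chr16:2047735-2047964.
DDIT4: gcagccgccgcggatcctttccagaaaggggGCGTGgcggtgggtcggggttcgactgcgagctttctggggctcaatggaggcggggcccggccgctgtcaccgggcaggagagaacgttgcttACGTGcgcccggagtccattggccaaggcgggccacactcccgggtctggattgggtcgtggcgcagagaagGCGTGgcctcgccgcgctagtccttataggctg
SESN2: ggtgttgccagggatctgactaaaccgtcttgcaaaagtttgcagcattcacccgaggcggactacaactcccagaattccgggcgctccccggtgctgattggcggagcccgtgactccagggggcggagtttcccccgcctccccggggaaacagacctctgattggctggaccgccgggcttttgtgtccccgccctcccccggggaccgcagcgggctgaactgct
TSC2: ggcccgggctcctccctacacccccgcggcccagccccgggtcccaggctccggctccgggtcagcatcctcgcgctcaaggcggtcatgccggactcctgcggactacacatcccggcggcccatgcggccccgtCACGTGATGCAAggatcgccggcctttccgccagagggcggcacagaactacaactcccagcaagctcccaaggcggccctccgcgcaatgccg

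In the full windows, which reach 50 bases past the start, DDIT4 held ACGTG at position -125 and GCGTG at -219, -53 and 26, counted from the start. TSC2 held ACGTG on both strands at -114 and -113, overlapping TGATGNAA at -110, in 1 of its windows. RHEB held ACGTG at -81 on the opposite strand, and a window of SESN1 held GCGTG at -82. SESN2, SESN3, TSC1 and DDIT4L held none of these, and no window searched held GTAAACA, the letters bound by FOXO factors. Such matches are common: ACGTG or GCGTG occurred in 48.4% of the 35116 promoter windows in the table, ACGTG alone in 21.4%, TGATGNAA in 3.62% and GTAAACA in 3.42%. A match is given here as a description of the letters and not as a site in use.

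Of the 9 genes, 8 passed the filter on low counts and were tested. At 6 h against 0 h, 2 were called higher (DDIT4 and RHEB) and 1 lower (SESN2), where 25.1% of all tested genes were called higher and 27.7% lower. At 12 h, 1 was higher (DDIT4) and 4 were lower (SESN1, SESN2, SESN3 and TSC2), against 24.2% and 27.1% of all tested genes. At 24 h, 2 were higher (DDIT4 and RHEB) and 3 lower (SESN2, SESN3 and TSC2), against 29.9% and 31.3%. With 8 genes tested and so many called over the table, these counts are not set apart from those shares, and the values of each gene carry the description. The median log2 fold change of the 8 genes was 0.156, -0.40 and -0.49 at 6, 12 and 24 h, beside -0.0021, -0.0326 and -0.0649 over all tested genes.

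**Figure D1:**
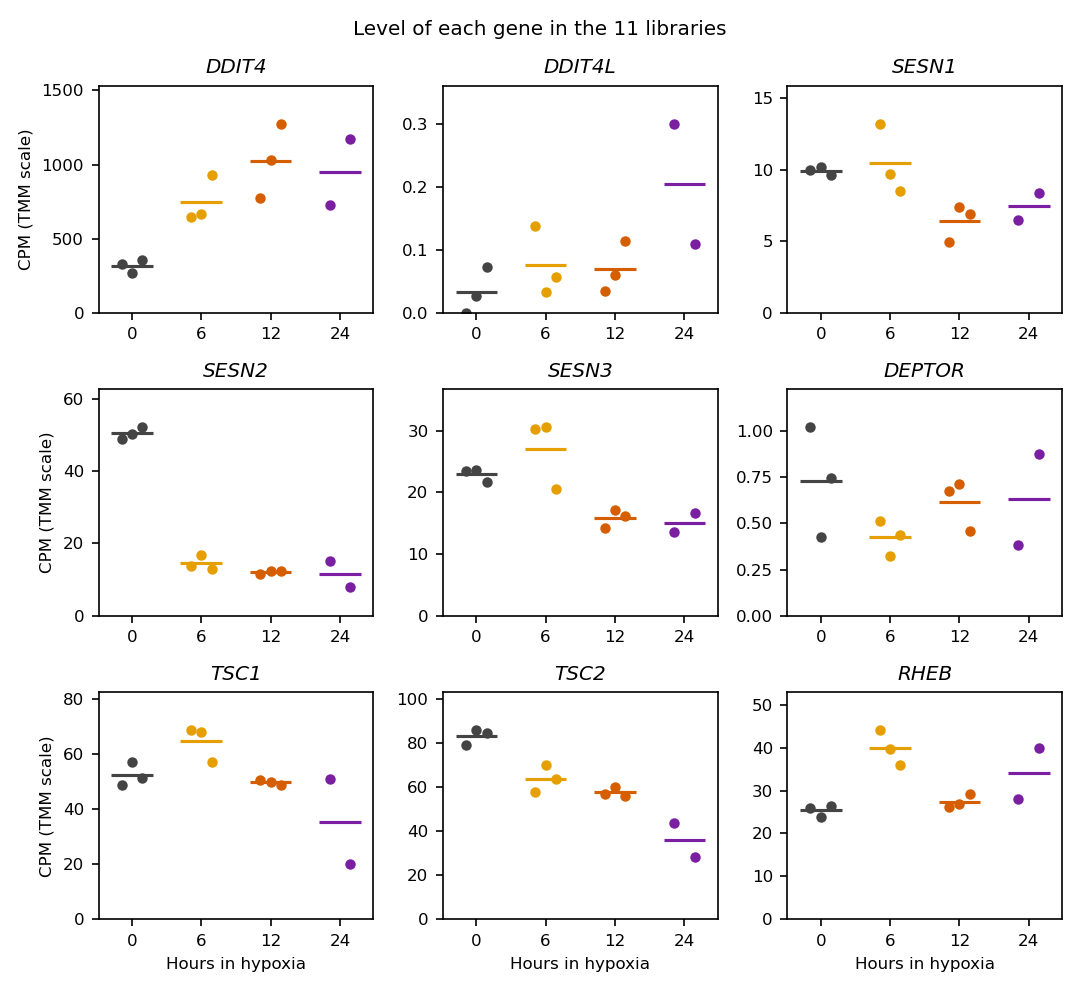
Level of each of the 9 regulators in CPM on the TMM scale (vertical axis, from 0, its own range in each panel) against hours in hypoxia, with 1 point per library and a line at the group mean. DDIT4 libraries lie at 265 to 353 CPM at 0 h and at 648 CPM or more in hypoxia, SESN2 libraries at 48.8 to 52.2 CPM at 0 h and at 16.9 CPM or less in hypoxia, and the 24 h libraries of TSC1 are far apart.

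DDIT4 (ENSG00000168209, chr10:72273919-72276036, plus strand) encodes REDD1 and was the only regulator called higher at all 3 times. Its level was 327, 265 and 353 CPM in the 0 h libraries, 648, 666 and 931 CPM at 6 h, 773, 1030 and 1275 CPM at 12 h, and 728 and 1169 CPM at 24 h. Every hypoxic library lay above every normoxic one. The mean rose from 315 ± 45.5 CPM (SD, n = 3) at 0 h to 748 ± 158 CPM (n = 3) at 6 h, a log2 fold change of 1.25 ± 0.243 (SE, edgeR adjusted p = 0.000975), or 2.38-fold. At 12 h it was 1026 ± 251 CPM (n = 3), 3.26-fold above 0 h (log2 fold change 1.70 ± 0.246, adjusted p = 0.00015), and at 24 h 948 ± 312 CPM (n = 2), 3.01-fold above 0 h (1.59 ± 0.264, adjusted p = 0.00024). The hypoxic libraries overlapped from one time to the next, and neither step was called (12 h against 6 h, log2 fold change 0.46, adjusted p = 0.304, and 24 h against 12 h, -0.11, adjusted p = 0.781). DDIT4 stood above 90.8% of all tested genes in log2 fold change at 6 h, 95.5% at 12 h and 87.2% at 24 h. The size at 24 h depended on the scaling. With library size alone the log2 fold change was 0.60 (adjusted p = 0.0425), where the median of all tested genes was -0.97. An exact two-sided permutation test of 3 against 3 libraries gave p = 0.10 at 6 and 12 h, the smallest that this design allows.

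DDIT4L (ENSG00000145358, chr4:100185870-100190782, minus strand), the REDD1 paralog REDD2, was nearly silent. It had 0, 1 and 3 counts at 0 h, 4, 1 and 3 at 6 h, 1, 2 and 5 at 12 h, and 7 and 2 at 24 h, and it was too low to test. REDD2 transcripts were thus at most 0.30 CPM in a library, where those of REDD1 were at least 265 CPM. Per kilobase of the MANE mRNA, the reference transcript of each gene, the 0 h means were 181 CPM for DDIT4 and 0.0126 CPM for DDIT4L.

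The sestrins are leucine- and stress-responsive inhibitors of GATOR2, and SESN2 carried most of their transcript at 0 h and lost most of it by 6 h. SESN2 (ENSG00000130766, chr1:28259518-28282491, plus strand), a known target of ATF4, was at 48.8, 50.4 and 52.2 CPM at 0 h. It was at 13.8, 16.9 and 13 CPM at 6 h, 11.5, 12.4 and 12.3 CPM at 12 h, and 15.2 and 8.07 CPM at 24 h. The highest hypoxic library lay far below the lowest normoxic one. The fall was already 3.47-fold at 6 h (log2 fold change -1.79 ± 0.198, adjusted p = 1.64e-05), and was 4.18-fold at 12 h (-2.06 ± 0.20, adjusted p = 9.7e-06) and 4.32-fold at 24 h (-2.11 ± 0.236, adjusted p = 1.28e-05). Without 24 h replicate 1 the 24 h value was -2.70, and without replicate 2 it was -1.75. Among all tested genes, 6.97% had a lower log2 fold change at 6 h, 3.88% at 12 h and 9.19% at 24 h. Between 6 and 12 h the groups did not overlap but the step was not called (-0.27, adjusted p = 0.472).

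SESN1 (ENSG00000080546, chr6:108984309-109094846, minus strand) was lower and its change was smaller. Its libraries were at 9.94, 10.2 and 9.59 CPM at 0 h, 13.2, 9.66 and 8.49 CPM at 6 h, 4.97, 7.38 and 6.88 CPM at 12 h, and 6.50 and 8.39 CPM at 24 h. The 6 h libraries straddled those of 0 h, while all at 12 and 24 h lay below them. SESN1 fell at 12 h (log2 fold change -0.63 ± 0.205, adjusted p = 0.0223), 1.54-fold, and at 24 h the value was -0.41 and missed the threshold (adjusted p = 0.141). That value was -0.63 without 24 h replicate 2 (adjusted p = 0.0645), and it was called where at least 10 counts in every library were required (-0.56, adjusted p = 0.0492) and with library size alone (-1.37, adjusted p = 0.000575). The 12 h call was lost when replicate 1 or 2 of 0 h or replicate 1 of 12 h was left out (adjusted p = 0.0559, 0.0598 and 0.0901).

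SESN3 (ENSG00000149212, chr11:95165513-95232541, minus strand), known as a FOXO target, followed a similar course. It was at 23.5, 23.7 and 21.7 CPM at 0 h, 30.2, 30.6 and 20.5 CPM at 6 h, 14.3, 17.1 and 16.1 CPM at 12 h, and 13.6 and 16.6 CPM at 24 h. Here too the 6 h libraries overlapped those of 0 h (log2 fold change 0.24, adjusted p = 0.251), and the later ones lay below both. Without 6 h replicate 3, the lowest of its group, the 6 h value was 0.41 and was called (adjusted p = 0.0362), as was the 0.30 from limma-voom with quality weights (adjusted p = 0.0327). SESN3 was lower at 12 h (-0.54 ± 0.169, adjusted p = 0.0187) and at 24 h (-0.61 ± 0.194, adjusted p = 0.0161). It was also the only regulator called between 6 and 12 h, where it dropped 1.71-fold (-0.77 ± 0.17, adjusted p = 0.0259), with 0 regulators called higher beside 1.88% of all genes and 1 lower beside 3.07%. In that step SESN1 (-0.70, adjusted p = 0.0704) and RHEB (-0.54, adjusted p = 0.0584) missed the threshold here and passed it in DESeq2 (adjusted p = 0.0178 and 0.0113). The SESN3 call between 6 and 12 h was lost in 7 of the 11 fits that left out 1 library, with adjusted p up to 0.113. The call at 12 h against 0 h did not survive the removal of replicates 1 or 2 of 0 h, or of replicates 1 or 3 of 12 h (adjusted p 0.051 to 0.0697), nor the call at 24 h that of its replicate 1 (adjusted p = 0.0509). Without 24 h replicate 2 the 24 h value was -0.78 (adjusted p = 0.00906).

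Per kilobase of mRNA the sestrins summed to 18.7 CPM at 0 h, 8.89 CPM at 6 h, 6.28 CPM at 12 h and 6.25 CPM at 24 h. SESN2 made up 77.8% of that sum at 0 h, 47.3% at 6 h, 55.6% at 12 h and 53.7% at 24 h. The shares of SESN1 and SESN3 went from 9.34% and 12.8% at 0 h to 20.8% and 31.9% at 6 h, so the loss of sestrin transcript at 6 h was that of SESN2. SESN2 still had the highest mean per kilobase of the sestrins at every time.

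**Figure D2:**
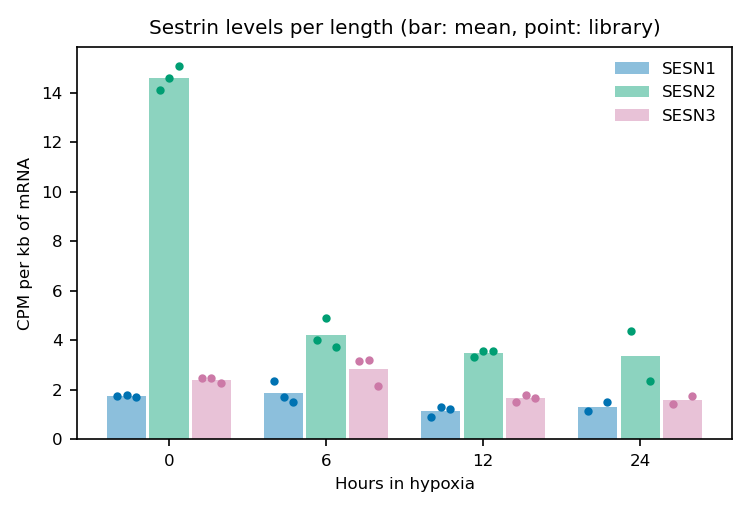
Sestrin levels in CPM per kilobase of mRNA (vertical axis, from 0) against hours in hypoxia, with bars at the group mean and 1 point per library. SESN2 stands at 14.6 CPM per kb at 0 h and at 3.36 to 4.21 CPM per kb in hypoxia, while SESN1 and SESN3 stay between 1.13 and 2.84 CPM per kb.

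TSC2 (ENSG00000103197, chr16:2047967-2089491, plus strand) encodes tuberin, the subunit that acts on RHEB. Its level was 79.1, 85.7 and 84.3 CPM at 0 h, 57.6, 69.9 and 63.5 CPM at 6 h, 56.8, 60.1 and 55.7 CPM at 12 h, and 43.4 and 28.2 CPM at 24 h. All hypoxic libraries lay below all normoxic ones, and both 24 h libraries lay below those of 12 h. TSC2 fell at 12 h (log2 fold change -0.53 ± 0.155, adjusted p = 0.0128) and at 24 h (-1.21 ± 0.181, adjusted p = 0.000107), when it was 2.32-fold lower. At 6 h the value was -0.38 and just missed the threshold (adjusted p = 0.0528), and it passed in 8 of the alternative settings, such as limma-voom (adjusted p = 0.0429) and a fit of the 2 groups alone (0.00473). TSC2 was the only regulator called between 12 and 24 h (-0.68 ± 0.178, adjusted p = 0.0145), where 0 were called higher beside 15.1% of all genes and 1 lower beside 13.3%. That call was lost without 24 h replicate 2 (-0.42, adjusted p = 0.0593). TSC2 shares 784 exonic bases, 3.82% of its exonic length, with PKD1 on the other strand, and PKD1 averaged 143, 115, 115 and 65.5 CPM at 0, 6, 12 and 24 h. The strand setting of the counting is not given in the sources used here, so reads there may not be separated, and the part of PKD1 was not tested.

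TSC1 (ENSG00000165699, chr9:132891348-132946874, minus strand) encodes hamartin, which stabilizes tuberin, and it was not called in any comparison of the main fit. It stood at 48.8, 57.0 and 51.3 CPM at 0 h, 68.5, 67.8 and 57.0 CPM at 6 h, 50.4, 49.8 and 48.5 CPM at 12 h, and 50.7 and 19.8 CPM at 24 h. The 12 h libraries lay within the range of 0 h or just below it, and the 24 h libraries lay far apart. The log2 fold change was 0.30 at 6 h (adjusted p = 0.32), -0.08 at 12 h (0.807) and -0.57 at 24 h (0.0964). At 24 h limma-voom, the study's own tool, called TSC1 lower (-0.70, adjusted p = 0.0453). So did a fit with no filter on low counts (-0.67, adjusted p = 0.0051) and one with library size alone (-1.35, adjusted p = 0.0107). The 24 h log2 fold change was -1.46 without replicate 1 and -0.07 without replicate 2. At 6 h, leaving out either 24 h library brought TSC1 past the threshold with much the same value (0.27 and 0.28, adjusted p = 0.0278 and 0.0227).

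RHEB (ENSG00000106615, chr7:151466012-151520120, minus strand), the direct activator of mTORC1, was highest at 6 h. It was at 25.9, 23.9 and 26.5 CPM at 0 h, 44.1, 39.6 and 35.9 CPM at 6 h, 26.1, 26.9 and 29.1 CPM at 12 h, and 28.1 and 39.9 CPM at 24 h. The 6 h libraries all lay above those of 0 and 12 h. RHEB rose 1.57-fold at 6 h (log2 fold change 0.65 ± 0.15, adjusted p = 0.00315), and at 12 h the value was 0.11 (adjusted p = 0.58). The 24 h call (0.42 ± 0.167, adjusted p = 0.0456) rested on replicate 2, without which the value was 0.12. It was also lost without each 0 h library, each 12 h library or 6 h replicate 2 (adjusted p 0.0534 to 0.131). Limma-voom did not make the call either (0.39, adjusted p = 0.0628). Nor did quality weights, no filter, at least 10 counts in every library or a fit of the 2 groups alone (adjusted p 0.0897 to 0.315). Scaling by library size alone gave -0.55 for RHEB at 24 h (adjusted p = 0.0101), where that scaling put the median of all tested genes at -0.97, and 0.33 at 6 h (adjusted p = 0.0789), where it put it at -0.32. RHEB shares 6.5% of its 75-base windows with the pseudogenes RHEBP1 and RHEBP2, whose group means were 0.835 to 1.74 CPM and 3.78 to 6.71 CPM, and how such reads were counted is not given in the sources used here.

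DEPTOR (ENSG00000155792, chr8:119873717-120050918, plus strand), which binds and inhibits mTOR, was the scarcest of the tested regulators. It had 44, 16 and 31 counts at 0 h, 15, 10 and 23 at 6 h, 20, 24 and 20 at 12 h, and 9 and 16 at 24 h. These groups overlapped at every time. The log2 fold changes of -0.79, -0.27 and -0.26 had standard errors of 0.388, 0.374 and 0.459 (adjusted p = 0.106, 0.567 and 0.637), and none was called. These values turned on single libraries. At 6 h the value was -0.47 without 0 h replicate 1 and -1.06, past the threshold (adjusted p = 0.0448), without 0 h replicate 2. At 12 h it was 0.04 without 0 h replicate 1 and -0.54 without 0 h replicate 2, and at 24 h 0.19 without 24 h replicate 1 and -0.95 without 24 h replicate 2. Library size alone called DEPTOR lower at 6 h (-1.10, adjusted p = 0.0255) and at 24 h (-1.25, adjusted p = 0.0219).

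**Figure D3:**
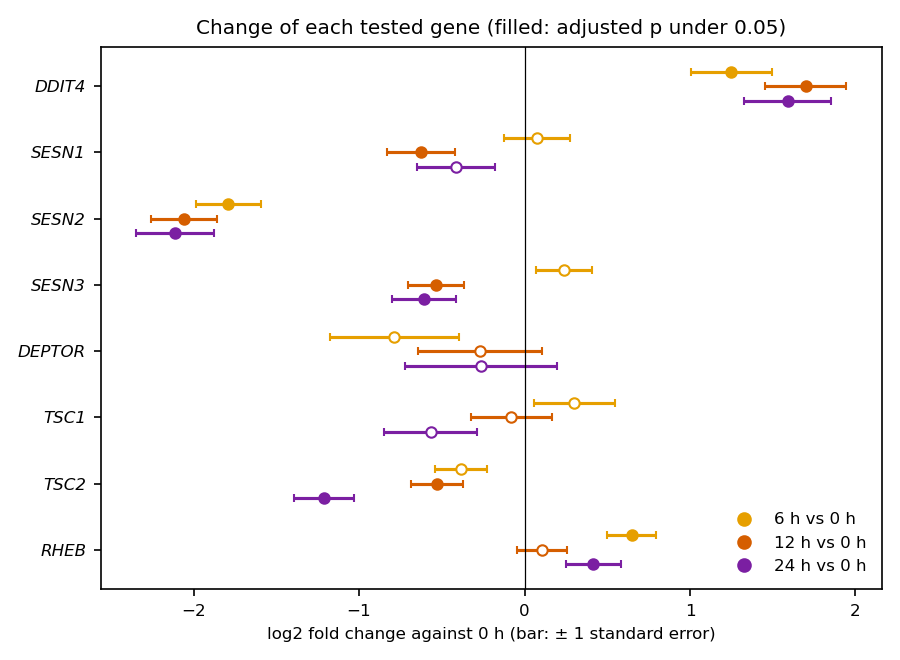
Log2 fold change against 0 h (horizontal axis) of the 8 tested regulators at 6, 12 and 24 h, with bars of 1 standard error and filled points where the adjusted p was under 0.05. DDIT4 lies between 1.25 and 1.70 and SESN2 between -2.11 and -1.79 at all 3 times, while the other values run from -1.21 to 0.65.

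Set side by side per kilobase of mRNA, the 0 h means ran in the order DDIT4 (181 CPM), SESN2 (14.6), TSC2 (12.9), RHEB (12.4), TSC1 (6.09), SESN3 (2.40), SESN1 (1.75), DEPTOR (0.284) and DDIT4L (0.0126). TSC2 and RHEB overlapped over their libraries, and the other neighbours did not. At 24 h the order was DDIT4 (544 CPM), RHEB (16.6), TSC2 (5.58), TSC1 (4.10), SESN2 (3.36), SESN3 (1.58), SESN1 (1.31), DEPTOR (0.245) and DDIT4L (0.0784), in which TSC2 overlapped TSC1, TSC1 overlapped SESN2, and SESN3 overlapped SESN1. The level per length of TSC2 depends on the transcript model. Over all annotated exons in place of the MANE mRNA, the 0 h means of TSC2 and RHEB were 4.04 and 7.21 CPM per kilobase.

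The 24 h libraries differed by mRNA length over the whole table. Genes with mRNAs of up to 2000 bases had a median log2 difference of 0.62 between replicate 2 and replicate 1 of 24 h, and those over 8000 bases one of -0.50. Against 0 h, the median change of these classes on the log2 scale was 0.77 and -0.63 at 24 h, but 0.20 and -0.01 at 12 h. Among the regulators, replicate 2 was lower in TSC1 (mRNA of 8598 bases, log2 difference -1.35), TSC2 (6415 bases, -0.62) and SESN2 (3462 bases, -0.91). It was higher in DDIT4 (1744 bases, 0.68) and RHEB (2046 bases, 0.51), and also in SESN3 (9563 bases, 0.29) and SESN1 (5664 bases, 0.36), which are long. The part of mRNA length in the 24 h values was not tested. Without replicate 2, DDIT4, SESN2 and TSC2 had 24 h log2 fold changes of 1.19, -1.75 and -0.96. The length class that holds TSC2, of mRNAs up to 8000 bases, had median changes of -0.096 at 12 h and -0.56 at 24 h. TSC2 itself was at -0.53 and -1.21. In that class the median log2 difference between replicate 2 and replicate 1 of 24 h was -0.45. Whether leaving out replicate 2 removes the shift by length was not tested.

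**Figure D4:**
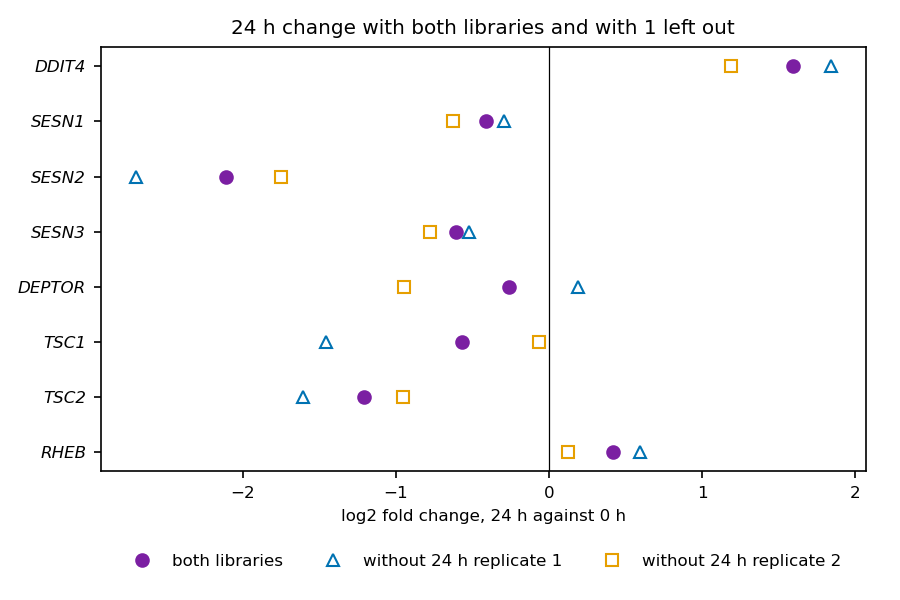
Log2 fold change at 24 h against 0 h (horizontal axis) of the 8 tested regulators with both 24 h libraries (filled circles), without replicate 1 (triangles) and without replicate 2 (squares). TSC1 moves from -1.46 to -0.07 between the alternatives, and DDIT4, SESN2 and TSC2 stay on the same side of 0 at 1.19 or above, -1.75 or below and -0.96 or below.

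The genes around the regulators were read from 5 lists of 73 genes in all, of which 71 were tested. At 6 h, 19 were called higher and 23 lower. At 12 h these counts were 20 and 16, and at 24 h 26 and 20, to be read beside the shares of all genes given above, with medians over the tested genes of 0.09, 0.05 and 0.06. The balance depended on the scaling: with library size alone 11 were higher and 29 lower at 6 h, 7 and 29 at 12 h, and 6 and 41 at 24 h. Genes of each list went both ways, and the list of amino acid sensing had the lowest median (-0.65 at 6 h, -0.31 at 12 h and -0.27 at 24 h).

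The amino acid branch, to which the sestrins belong, had 4 genes called higher and 7 lower of 14 tested at 6 h, and 4 and 6 at 12 and at 24 h. KICS2, a subunit of KICSTOR, which anchors GATOR1 to the lysosome, fell at all 3 times. It averaged 5.65, 0.869, 1.85 and 0.794 CPM at 0, 6, 12 and 24 h (log2 fold change -2.71, -1.60 and -2.83, adjusted p = 3.63e-06, 0.000116 and 8.85e-06). Among the Rag GTPases, Ragulator and folliculin genes, which recruit mTORC1 to the lysosome, 2 of 13 were higher and 3 lower at 6 h, 4 and 1 at 12 h, and 6 and 1 at 24 h. The Ragulator subunit LAMTOR4 averaged 18.3, 23.1, 30.0 and 75.9 CPM and its partner LAMTOR5 17.2, 33.4, 29.9 and 65.9 CPM, with 24 h log2 fold changes of 2.05 and 1.94 (adjusted p = 7.45e-05 and 0.000116).

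Of the 10 subunits of mTORC1 and mTORC2, 3 were higher and 2 lower at 6 h, 2 and 1 at 12 h, and 4 and 3 at 24 h. MTOR, the kinase itself, averaged 96.4, 65.5, 55.9 and 25.7 CPM and fell at all 3 times (log2 fold change -0.56, -0.79 and -1.90, adjusted p = 0.0288, 0.00524 and 2.6e-05). PRR5L, a component found with mTORC2, averaged 3.50, 22.2, 20.2 and 17.5 CPM and rose at all 3 times (2.66, 2.53 and 2.33, adjusted p = 2.76e-07, 5.1e-07 and 6.21e-07).

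Growth factor and energy inputs to the TSC complex had 5 genes higher and 8 lower of 20 tested at 6 h, 5 and 6 at 12 h, and 6 and 7 at 24 h. STRADA, the pseudokinase that activates LKB1, averaged 4.54, 0.959, 1.70 and 0.49 CPM and fell at all 3 times (log2 fold change -2.22, -1.41 and -3.18, adjusted p = 2.21e-05, 0.00052 and 1.09e-05). PDPK1, the kinase that phosphorylates AKT, averaged 53.1, 56.6, 36.3 and 20.9 CPM and fell at 12 and 24 h (-0.55 and -1.34, adjusted p = 0.00862 and 3.94e-05), with 0.09 at 6 h (adjusted p = 0.623). Of the 14 mTORC1 substrates and effectors, 5 were higher and 3 lower at 6 h, 5 and 2 at 12 h, and 6 and 3 at 24 h. EIF4EBP1, the translation repressor 4E-BP1, averaged 27.4, 30.3, 46.3 and 80.7 CPM and rose at 12 and 24 h (0.76 and 1.56, adjusted p = 0.00328 and 2.49e-05), and the adaptor GRB10 averaged 32.1, 19.6, 13.5 and 10.7 CPM and fell at all 3 times (-0.71, -1.25 and -1.58, adjusted p = 0.00711, 0.000224 and 7.84e-05). Without 24 h replicate 2 each of these 24 h changes was still called. LAMTOR4 was then at 1.22, LAMTOR5 at 1.05, EIF4EBP1 at 1.24 and PRR5L at 2.29 on the log2 scale, and MTOR was at -1.52, PDPK1 at -1.15, GRB10 at -1.35, STRADA at -2.93 and KICS2 at -2.89. The part of mRNA length in the 24 h changes of the pathway genes was not tested either. These are transcript levels, and the activity of mTORC1 was not measured.

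**Figure D5:**
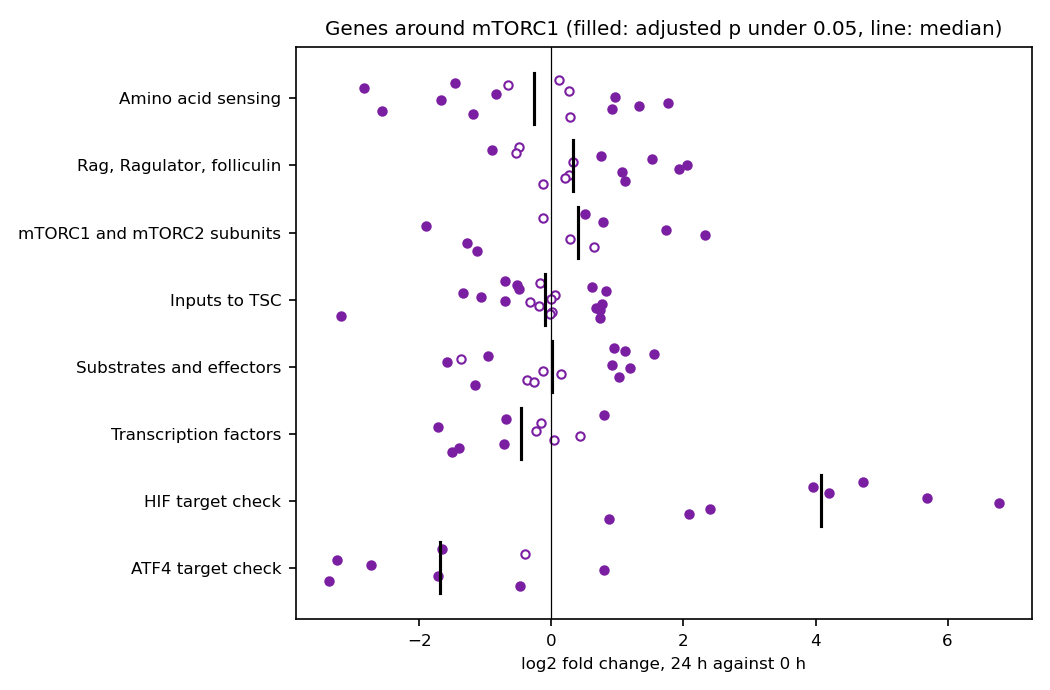
Log2 fold change at 24 h against 0 h (horizontal axis) of the tested genes in the 5 pathway lists, the list of transcription factors and the 2 target checks, with 1 point per gene, filled where the adjusted p was under 0.05, and a line at each list's median. Points of the pathway lists lie on both sides of 0, while all 8 HIF targets lie between 0.871 and 6.77 and the ATF4 targets have a median of -1.68.

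Transcription factors known to act on these regulators were called in both directions, 2 higher and 3 lower of 10 at 6 h, 2 and 4 at 12 h, and 1 and 5 at 24 h, counts of so few genes that they are not set apart from the shares of all genes given above. TP63 and FOXO1 were among those that fell at all 3 times. TP63, which keeps basal identity in prostate epithelium, averaged 242, 73.5, 125 and 85.7 CPM (log2 fold change -1.72, -0.95 and -1.50, adjusted p = 5.43e-06, 0.000397 and 2.66e-05). Among other basal markers, KRT14 went the opposite way and was called higher at all 3 times (1.21, 1.39 and 2.14, adjusted p = 0.00256, 0.00119 and 6.38e-05). LAMB3 did so too (0.69, 0.66 and 1.15), while KRT15 fell (-1.73, -1.27 and -1.07, adjusted p = 0.00133, 0.00888 and 0.0329). Without 24 h replicate 2 the 24 h values of KRT14, LAMB3 and KRT15 were 1.57, 1.05 and -0.85. FOXO1 averaged 38.3, 15.5, 22.5 and 11.6 CPM (-1.31, -0.76 and -1.72, adjusted p = 0.000593, 0.0159 and 0.000207). ATF4, the stress-response factor, averaged 211, 166, 222 and 365 CPM and was called higher at 24 h alone of the 3 times (0.79, adjusted p = 0.001), with -0.34 at 6 h (adjusted p = 0.0628) and 0.08 at 12 h (adjusted p = 0.677).

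Target genes of these factors were counted beside the regulators, to be read with the shares of all genes given above. Their lists were chosen with earlier results of these data known. All 8 HIF targets rose at all 3 times, with 24 h log2 fold changes from 0.871 in VEGFA to 6.77 in the prolyl hydroxylase gene EGLN3. The 24 h value of VEGFA turned on single libraries, at 0.06 without 24 h replicate 1 and 1.35 without replicate 2. That of EGLN3 was then 7 and 6.41. Of 8 ATF4 targets, which are genes of amino acid supply and of the stress response, 7 fell and 0 rose at 6 and 12 h, and 6 fell and 1 rose at 24 h. The cystine transporter gene SLC7A11 was lowest at 24 h (-3.36, adjusted p = 4.93e-06), asparagine synthetase ASNS was at -1.65 (adjusted p = 0.000109), and PHGDH, of serine synthesis, rose (0.80, adjusted p = 0.00148). The part of either factor in the changes of DDIT4 and SESN2 was not tested.

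The genes with the profile most like each regulator over the 11 libraries were named from 13939 genes by Pearson's r of log2 CPM, as a description over libraries that share depth, scaling and time. CCDC57 (r = 0.989) and DLX6-AS1 (r = 0.986) were closest to SESN2, and BARX2 (0.969) and PRSS8 (0.967) to DDIT4. TSC2 was closest to CELSR1 (0.991) and PIK3CD (0.989), and TSC1 to SMG1P6 (0.976) and PHKA1P1 (0.973). RHEB was closest to PPP4R2 (0.959) and WRNIP1 (0.958), SESN3 to TMEM170A (0.979) and FAM217B (0.968), SESN1 to PIGW (0.929) and PM20D2 (0.915), and DEPTOR to PCCA-DT (0.799) and KRT16 (0.787). Over the 8 hypoxic libraries alone, the first-named gene had r = 0.877 with SESN2 and 0.804 with DDIT4, but 0.990 with TSC2 and 0.984 with TSC1.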

How the data were processed

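RNA from RWPE1 cells was sequenced as single-end 75-base reads from a stranded kit. Per the study's methods and the submitters' processing notes, the authors trimmed reads with Trimmomatic, aligned them to GRCh38 (hg38) with STAR and deposited raw counts per gene from featureCounts. The strand setting and the handling of multi-mapping reads are not given in the sources used here. The deposited counts were tested with edgeR 4.0.16 (R 4.3.3) in 1 fit of all 11 libraries, with filterByExpr (minimum count 10, total 15), TMM, the quasi-likelihood test and Benjamini-Hochberg adjustment over 19981 genes. The study's own tool, limma-voom (limma 3.58.1), DESeq2 1.42.0, other scalings and filters, a replicate block and leaving out each library were alternatives. Standard errors were derived from the log2 fold change and its F statistic. The members and gene lists were chosen with earlier results of these data known. All 9 regulators were named. In each pathway list the 2 called genes with the largest 24 h change were named, then factors called one way at all times, up to 3 targets per check, and the 2 genes most like each regulator with a mean of at least 1 CPM. Some genes that this rule names are not reported here. Gene positions are from GENCODE on GRCh38 and promoters from RefSeq. No 2 libraries agreed within sampling noise. Group labels gave 3 libraries at 0, 6 and 12 h and 2 at 24 h.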

Additional observations from a re-analysis of the deposited data

Results flagged for a closer look

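The change of SESN3 against 0 h differed between 6 h and 12 h, with a log2 fold change of -0.773 for 12 h against 6 h in edgeR's quasi-likelihood test (adjusted p = 0.0259), and all 3 libraries at 12 h lay below all 3 at 6 h. The call was lost when any of 0 h replicates 1 and 3, 6 h replicates 1 and 2, or 12 h replicates 1, 2 and 3 was left out (values -0.836 to -0.678). The change of TSC2 against 0 h differed between 12 h and 24 h by -0.682 (adjusted p = 0.0145), and both 24 h libraries lay below all 3 at 12 h. Without 24 h replicate 2 this value was -0.421 (adjusted p = 0.0593).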

How the results depend on the processing

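Of 795 values of single regulators under the alternatives, 716 kept their side of the threshold, 24 of them uncalled values with a change of sign, 44 gained a call, 34 lost one and 1 reversed. DDIT4 and SESN2 kept every call against 0 h in all alternatives run, and TSC2 kept those at 12 and 24 h. The size of the DDIT4 change at 24 h was 0.602 with library size alone (adjusted p = 0.0425), in place of 1.59. RHEB at 24 h went to -0.553 with library size alone, a scaling under which 2222 genes were called higher and 11305 lower at 24 h, in place of 5974 and 6261. The number of regulators called at 6 h was 3, and became 6 with limma-voom quality weights and 5 with only the 2 groups compared, and ranged from 3 to 5 when 1 library was left out. At 12 h it was 5, with a range of 3 to 5 when 1 library was left out, and at 24 h it was 5, becoming 3 with quality weights and 8 with library size alone. With limma-voom RHEB lost its 24 h call and TSC1 gained one, so the number stayed 5, as 1 higher and 4 lower. Between 6 and 12 h it was 1, and became 5 with quality weights, 3 with DESeq2, and 2 with library size alone, no filter, at least 10 counts in every library or only the 2 groups, with a range of 0 to 4 when 1 library was left out. Between 12 and 24 h it was 1, and became 0 with quality weights, 2 with no filter and 0 with only the 2 groups, where edgeR called 0 of all 17807 genes, 5671 of them at an unadjusted p under 0.05, and the loss says nothing of the regulators (quality weights called 684 higher and 409 lower), with a range of 0 to 4 when 1 library was left out. Pathway genes called at 12 h numbered 36, and 56 with quality weights. At 6 h the number was 42, with 51 under quality weights and 32 without 0 h replicate 1. At 24 h it was 46, with 34 under quality weights. The causes were not tested. Replicate numbers did not pair the libraries: deviations of same-numbered libraries correlated from -0.156 to 0.207 over 15 pairs, and 3 of 11 libraries were closest to their own number. With the replicate block, 3, 5 and 4 regulators were called at 6, 12 and 24 h, where RHEB at 24 h lost its call (0.411, adjusted p = 0.0842), and no other call of a regulator changed. With 2 libraries at 24 h, leaving out 1 assumes that the other varies as the remaining groups do.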
